A study of Homo sapiens with 9 samples.

Results

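Transcripts of 10 receptor tyrosine kinases for growth factors, GAS6 and collagen were followed through the loss of MPZL3 in OVCA433 cells, an established human cell line labelled as ovarian serous adenocarcinoma. They were the FGF receptors FGFR1, FGFR2, FGFR3 and FGFR4, the PDGF receptors PDGFRA and PDGFRB, the HGF receptor MET, the GAS6 receptor AXL, and the collagen receptors DDR1 and DDR2. They were taken by symbol from the 58676 genes of the count table, and all 10 were found there. RNA was sequenced from 3 groups of 3 libraries marked A, B and C. Control cells carried an shRNA control vector, and the knockdown cells carried shRNA#1-MPZL3 or shRNA#3-MPZL3, here called hairpin #1 and hairpin #3. All 3 groups came from lentiviral transduction and puromycin selection, so the controls share both with the knockdowns. The study describes the control vector as empty in 1 place and as scrambled in another. The replicates were described as biological, but the labels do not say how the cultures were separated, so p-values measure the spread between these libraries. The question put to the data was whether receptor transcripts changed from one family member to another as the cells lost epithelial transcripts.

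Receptor tyrosine kinases are cell surface proteins, many of which pair when a ligand binds. Activated receptors phosphorylate each other and recruit adaptors that feed the MAPK and PI3K pathways. Epithelial cells typically express FGFR2 and DDR1, whereas fibroblasts and other mesenchymal cells typically express FGFR1, the PDGF receptors and DDR2. AXL and MET are known for their links to migration and invasion of carcinoma cells.

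Library totals were 16850854 to 23890191 counts. Levels are given as CPM, TMM-scaled counts per 1000000 counts, as mean ± SD. MPZL3 itself had a level of 19.5 ± 3.42 CPM in control cells (n = 3), against 1.89 ± 0.0927 for hairpin #1 (n = 3) and 1.58 ± 0.514 for hairpin #3 (n = 3). The summed level of 12 serous epithelial markers was 11870 to 14800 CPM in control libraries and 5262 to 6819 CPM in knockdown libraries. CDH1, which encodes E-cadherin, was at 275 CPM in control and at 0.112 and 0.148 CPM with hairpins #1 and #3, and 10 mesenchymal markers summed to 1607 to 2084 CPM in control and 6113 to 14200 CPM in knockdown libraries. By the edgeR rule given with the receptor calls, 9 of the 11 tested epithelial markers fell and 1, PAX8, rose. By the same rule 8 of the 9 tested mesenchymal markers rose. Over all tested genes 7.26% rose and 7.4% fell. The tested markers not called were KRT7 (3430 CPM in control, 2743 and 2215 CPM with hairpins #1 and #3) and SNAI2 (32.3, 31.2 and 34.0 CPM). Of the defining serous markers, WT1 was at 0 in all 9 libraries and MUC16 was at 0 in the 6 knockdown libraries. CDH1 and MUC16 passed the filter on low counts through the control libraries, so they could be counted only as fallen. In these bulk samples, fewer cells of a type and less RNA per cell cannot be told apart.

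The 250 bases before the RefSeq start of FGFR2 and PDGFRB, on GRCh38.p14, are shown because these genes had the largest fall and the largest rise among the receptors. They are printed 5′ to 3′ on the strand of the gene, with capitals for the GC box GGGCGG or its other strand CCGCCC. FGFR2 is on the minus strand at chr10:121598445-121598694 and PDGFRB on the minus strand at chr5:150155846-150156095.
FGFR2: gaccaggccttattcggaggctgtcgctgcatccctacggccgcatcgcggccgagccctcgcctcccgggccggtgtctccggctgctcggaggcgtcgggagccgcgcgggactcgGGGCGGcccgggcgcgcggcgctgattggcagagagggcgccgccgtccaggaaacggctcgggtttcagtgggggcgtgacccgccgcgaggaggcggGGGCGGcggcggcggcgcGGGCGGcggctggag
PDGFRB: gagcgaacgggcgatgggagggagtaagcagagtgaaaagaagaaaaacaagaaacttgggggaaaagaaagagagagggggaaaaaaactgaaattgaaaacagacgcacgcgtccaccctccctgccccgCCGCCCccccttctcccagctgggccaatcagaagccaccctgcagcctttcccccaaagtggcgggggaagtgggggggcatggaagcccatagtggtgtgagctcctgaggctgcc
The FGFR2 window held 42 CG dinucleotides at 78.4% GC and 3 GC boxes, and the PDGFRB window held 9 CG dinucleotides at 58.4% GC and 1 GC box. The medians over 27305 RefSeq promoter windows of the same length were 10 CG dinucleotides and 57.6% GC, and 42.2% of the windows held a GC box. RefSeq windows were found for 9 of the 10 receptors, and that of FGFR1 was not among them. The E-box CACCTG or CAGGTG, held by 17.5% of all windows, was found before AXL and FGFR4, 1 match in each, and the AP-1 motif TGANTCA, held by 6.6% (it reads the same on the other strand), was found before PDGFRA alone. In CG count, FGFR3 (40), FGFR4 (24) and MET (24) lay above that median, and PDGFRA (8), DDR1 (6), AXL (4) and DDR2 (0) lay below it. These matches describe letters in the windows and say nothing about binding.

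Knockdown of MPZL3 was accompanied by opposite changes within the FGF receptor family, by a rise of PDGFRB and by a fall of DDR1. Both hairpins together (n = 6) were compared with control (n = 3) with the edgeR quasi-likelihood test, and a gene was called when its adjusted p was under 0.05 and its log2 fold change reached 1 in size. PDGFRA did not pass the filter on low counts, and 4 of the 9 receptors tested were called. PDGFRB and FGFR1 rose, and FGFR2 and DDR1 fell. PDGFRB, with 6 to 17 counts per control library, passed the filter through the knockdown libraries. It could therefore enter the counts given here only as risen. Over all 15975 tested genes, 14.7% were called, 7.26% higher and 7.4% lower. With hairpin #1 alone 5 of the 9 were called, where 16.3% of all tested genes were, and with hairpin #3 alone 4 were called, where 15.3% were. These hairpin comparisons share the same control libraries. In 5 of the 9 receptors, PDGFRB, FGFR1, FGFR2, MET and DDR1, the knockdown libraries did not overlap the control libraries, which held for 33.1% of all tested genes. The median log2 fold change of the 9 was 0.20, against 0.0045 over all tested genes.

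**Figure D1:**
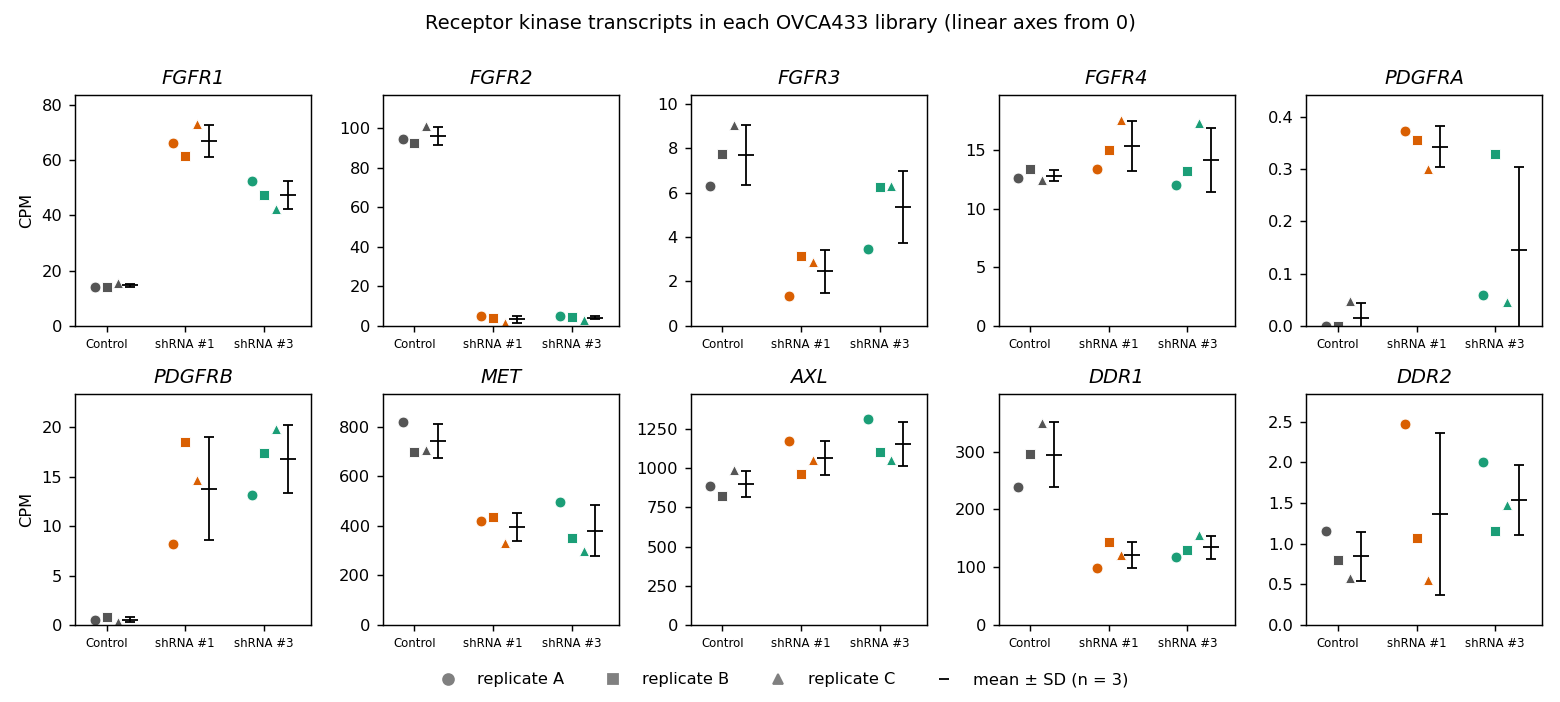
CPM of each receptor in the 9 libraries on linear axes from 0, grouped as control, hairpin #1 and hairpin #3, with marker shapes for replicates A, B and C and black bars for mean ± SD (n = 3), drawn down to 0 where the SD exceeds the mean. FGFR1 and PDGFRB lie above control in all 6 knockdown libraries, and FGFR2, MET and DDR1 lie below control in all 6.

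FGFR2, whose epithelial splice form binds FGFs made by the stroma, had the largest fall (ENSG00000066468, chromosome 10, 121478334 to 121598458). It was at 94.5, 92.3 and 101 CPM in control libraries A, B and C, at 4.91, 3.87 and 1.29 CPM with hairpin #1, and at 4.94, 4.50 and 3.22 CPM with hairpin #3. Every knockdown library was far below every control library, and hairpin #1 replicate C was the lowest. The log2 fold change was -4.68 (SE 0.265, edgeR adjusted p = 9.38e-08), with -4.85 for hairpin #1 and -4.52 for hairpin #3. The counts are per gene, so the epithelial and mesenchymal splice forms of FGFR2 cannot be told apart.

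FGFR1 (ENSG00000077782, chromosome 8), which is widely expressed in mesenchymal cells, rose. It was at 14.2, 14.2 and 15.4 CPM in control, at 66.3, 61.5 and 73.0 CPM with hairpin #1, and at 52.4, 47.2 and 42.3 CPM with hairpin #3. The 3 groups did not overlap, and hairpin #1 was the highest. The log2 fold change was 1.97 (SE 0.176, edgeR adjusted p = 4.64e-06). FGFR1 overlaps the gene AC087623.1 on the other strand and the libraries carried no strand, but that gene had at most 9 counts in any library.

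FGFR3 (ENSG00000068078, chromosome 4, 1793307 to 1808872), a receptor best known from growth cartilage and urothelium, was lower with hairpin #1. It was at 6.30, 7.76 and 9.03 CPM in control, at 1.36, 3.15 and 2.87 CPM with hairpin #1, and at 3.47, 6.26 and 6.31 CPM with hairpin #3. All hairpin #1 libraries were below all others, whereas the highest hairpin #3 library overlapped control. For hairpin #1 the log2 fold change was -1.64 (SE 0.300, edgeR adjusted p = 6.95e-04), and for hairpin #3 it was -0.52 (SE 0.282, edgeR adjusted p = 0.181). With the 2-fold threshold placed inside the test, the hairpin #1 call was lost (edgeR adjusted p = 0.0639). The pooled value, -0.98 (SE 0.369, edgeR adjusted p = 0.0611), was not called, but it was -1.08 (edgeR adjusted p = 0.00287) in a model with 3 groups, -1.17 (edgeR adjusted p = 0.0299) without hairpin #3 replicate B and -1.18 (edgeR adjusted p = 0.0255) without hairpin #3 replicate C.

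FGFR4 (ENSG00000160867, chromosome 5, 177086886 to 177098144), the receptor of FGF19 in liver, was not called. Control cells had 12.8 ± 0.497 CPM, hairpin #1 cells 15.3 ± 2.11 and hairpin #3 cells 14.1 ± 2.76. The pooled log2 fold change was 0.20, with a 95% interval from -0.13 to 0.53 (edgeR adjusted p = 0.302). Hairpin #3 overlapped control, and the lowest hairpin #1 library (13.41 CPM) was just above the highest control library (13.39 CPM).

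To compare FGF receptors with each other, counts were divided by the merged exon length of each gene and scaled to a sum of 1000000 over all genes. On this scale FGFR2 made up 70.4% ± 1.18 of the summed FGF receptor level in control, and FGFR1 6.32% ± 0.0450. With hairpin #1 the shares were 4.90% ± 2.90 for FGFR2 and 56.1% ± 2.68 for FGFR1, and with hairpin #3 they were 6.82% ± 1.68 and 44.9% ± 6.56. FGFR2 was thus the leading FGF receptor transcript in every control library, and a minor one in every knockdown library. FGFR4 had 14.6% in control, 33.6% with hairpin #1 and 35.1% with hairpin #3, although its own level was not called, and FGFR3 had 8.71%, 5.38% and 13.2%. The summed FGF receptor level per length was 68.3 ± 2.47 in control cells, 35.5 ± 1.08 in hairpin #1 cells and 31.8 ± 0.0731 in hairpin #3 cells. FGFR2 exceeded FGFR1 per length by 11.03 to 11.3 times in the control libraries, and FGFR1 exceeded FGFR2 by 6.18 to 33.5 times in the knockdown libraries, the highest being hairpin #1 replicate C.

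**Figure D2:**
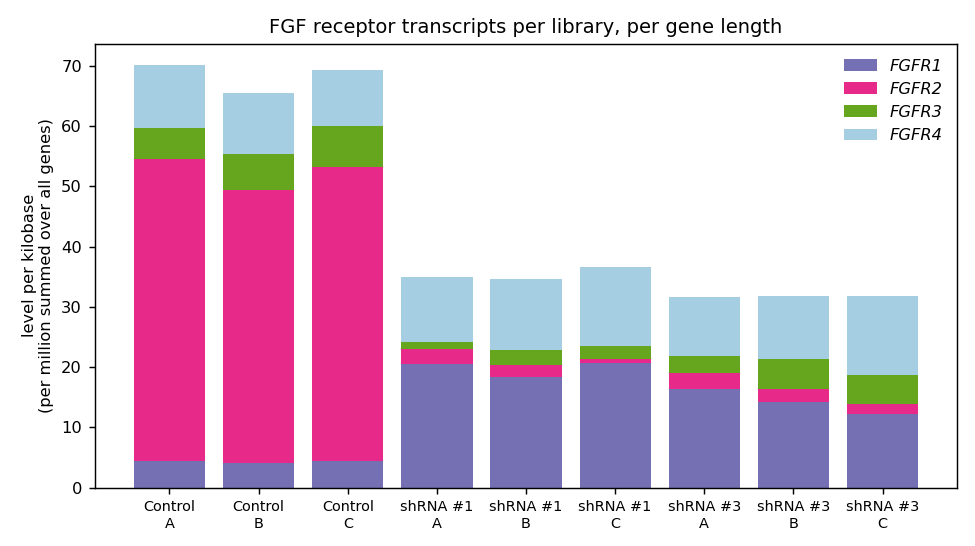
Stacked levels of FGFR1, FGFR2, FGFR3 and FGFR4 per kilobase of merged exon in each library, scaled to a sum of 1000000 over all genes. The summed level is about 68.3 in control and 35.5 and 31.8 with hairpins #1 and #3, and the largest segment is FGFR2 in each control library and FGFR1 or FGFR4 in the knockdown libraries.

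PDGFRB (ENSG00000113721, chromosome 5, 150113837 to 150155872), the PDGF receptor of pericytes and fibroblasts, had the largest rise. It was at 0.533, 0.846 and 0.287 CPM in control, at 8.18, 18.5 and 14.7 CPM with hairpin #1, and at 13.1, 17.5 and 19.9 CPM with hairpin #3. The groups were far apart, with 6 to 17 counts per control library and 175 to 432 per knockdown library. The log2 fold change was 4.78 (SE 0.384, edgeR adjusted p = 1.84e-06). The 8 fibroblast markers summed to 18.2 to 22.5 CPM in control, 102 to 432 CPM with hairpin #1 and 494 to 856 CPM with hairpin #3, and most of that sum was COL1A1 (17.9, 312 and 641 CPM). The other 7 summed to 1.44 to 2.68 CPM, 6.64 to 10.02 CPM and 6.86 to 10.4 CPM, with DCN at 0 in all 9 libraries and FAP at 0.55 CPM in control and 0.352 and 0.129 CPM with hairpins #1 and #3. Their part in the PDGFRB difference was not tested.

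PDGFRA (ENSG00000134853, chromosome 4, 54229097 to 54298247), the other PDGF receptor, was close to the detection limit. Its raw counts were 0, 0 and 1 in control, 8, 7 and 7 with hairpin #1, and 1, 6 and 1 with hairpin #3. All hairpin #1 libraries were above all control libraries, whereas hairpin #3 overlapped control. The ratio of summed counts at equal depth was 21.1 for hairpin #1 against control, with an exact 95% interval from 3.41 to 870 that covers counting error only, and 8.66 for hairpin #3 against control, from 1.16 to 384. Of the 8 counts with hairpin #3, 6 came from replicate B, and without it the ratio was 3.19, with an interval from 0.166 to 188. Thus PDGFRB, not PDGFRA, held nearly all PDGF receptor reads in the knockdown libraries, with 1855 counts against 30.

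MET (ENSG00000105976, chromosome 7, 116672390 to 116798386), the HGF receptor, was lower in all 6 knockdown libraries. It was at 819, 699 and 704 CPM in control, at 419, 435 and 330.0 CPM with hairpin #1, and at 494 (replicate A), 349 and 299 CPM with hairpin #3. Knockdown and control libraries did not overlap, whereas the hairpins overlapped each other. The log2 fold change was -0.93 (SE 0.146, edgeR adjusted p = 3.90e-04), which passed the test but missed the fold threshold. Without hairpin #3 replicate A it was -1.02 and passed both.

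AXL (ENSG00000167601, chromosome 19, 41219203 to 41261766), the receptor of GAS6, was the most abundant of the 10 receptors in every group. It was at 885, 821 and 987 CPM in control, at 1176, 964 and 1056 CPM with hairpin #1, and at 1314, 1101 and 1052 CPM with hairpin #3. Of the 6 knockdown libraries, 5 were above all control libraries and hairpin #1 replicate B overlapped them. The pooled log2 fold change of AXL was 0.31, with a 95% interval from 0.05 to 0.57 (edgeR adjusted p = 0.0517). With hairpin #3 alone it was 0.36 (edgeR adjusted p = 0.0327), under the fold threshold. AXL overlaps AC011510.1 on the other strand, which had at most 19 counts in any library. Per length, AXL exceeded MET by 1.48 to 1.92 times in control and by 3.03 to 4.81 times in the knockdown libraries. AXL thus had 52.7% ± 1.86 of the summed level of the 10 receptors in control, 71.8% ± 3.59 with hairpin #1 and 73.8% ± 0.501 with hairpin #3.

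DDR1 (ENSG00000204580, chromosome 6, 30876421 to 30900156), the collagen receptor of epithelia, fell. It was at 239, 296 and 350.1 CPM in control, at 99.4, 144 and 121 CPM with hairpin #1, and at 117, 131 and 155 CPM with hairpin #3. Every knockdown library was below every control library. The log2 fold change was -1.20 (SE 0.144, edgeR adjusted p = 4.88e-05). With the 2-fold threshold placed inside the test DDR1 was not called (edgeR adjusted p = 0.275), and without control replicate C its value for hairpin #3 was -0.99.

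DDR2 (ENSG00000162733, chromosome 1, 162631373 to 162787400), the fibrillar collagen receptor of mesenchymal cells, was low in all groups. It was at 1.16, 0.796 and 0.574 CPM in control, at 2.48, 1.07 and 0.557 CPM with hairpin #1, and at 2.0, 1.15 and 1.47 CPM with hairpin #3. Each hairpin overlapped control, with 12 to 53 counts per library. The log2 fold change was 0.78, with a 95% interval from -0.27 to 1.82 (edgeR adjusted p = 0.206). Per length, DDR1 exceeded DDR2 by 242, 437 and 718 times in control libraries A, B and C. The values were 47.2, 159 and 255 times with hairpin #1, and 68.95, 133 and 124 times with hairpin #3. Only hairpin #1 replicate C lay above the lowest control library, A. Within each letter the control library was the highest, although the letters were not taken to pair the samples.

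**Figure D3:**
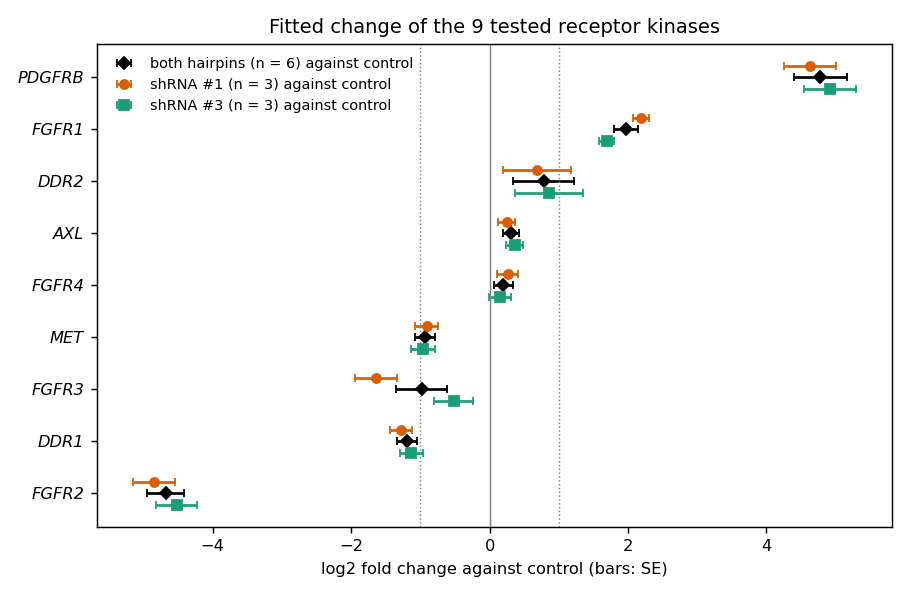
Log2 fold change against control of the 9 tested receptors, with SE bars, for both hairpins together (black, n = 6) and each hairpin (n = 3 each); dotted lines mark the fold threshold. PDGFRB (4.78) and FGFR2 (-4.68) lie at the extremes, and FGFR1 and FGFR3 are the receptors whose hairpin values differ by an edgeR test.

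The order of the receptors by level per length was AXL, MET, DDR1, FGFR2, FGFR4, FGFR3, FGFR1, DDR2, PDGFRB and PDGFRA in control. In that order the ranges of DDR2 and PDGFRB overlapped, and those of the other neighbours did not. With the length of the longest transcript in place of merged exons, FGFR1 (6.28 to 6.74) came before FGFR3 (4.18 to 5.49) in control. On that scale PDGFRB came before DDR2 in control and FGFR2 before FGFR3 with hairpin #1, with overlapping ranges. With hairpin #1 the order was AXL, MET, DDR1, FGFR1, FGFR4, PDGFRB, FGFR3, FGFR2, DDR2 and PDGFRA, and the ranges of FGFR3 and FGFR2 and of FGFR2 and DDR2 overlapped. With hairpin #3 the order was the same, and the ranges of FGFR1 and FGFR4 and of FGFR4 and PDGFRB overlapped. Among 58 receptor tyrosine kinases, these 10 and 48 others, AXL ranked 1 in each group, and MET ranked 2 in control and 3 with each hairpin. FGFR2 went from rank 12 to rank 31 with both hairpins, FGFR1 from 29 to 15 and 17, and PDGFRB from 38 to 23 and 23.

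The hairpins were compared directly to see where their effects on the receptors differed. Of the 9 receptors, 1 was called, where 3.93% of all tested genes were. It was FGFR3, which was higher with hairpin #3 than with hairpin #1 by 1.13 on the log2 scale (SE 0.305, edgeR adjusted p = 0.0297). That call was lost without hairpin #1 replicate A (0.83, edgeR adjusted p = 0.0643), hairpin #1 replicate C (1.26, edgeR adjusted p = 0.0501), hairpin #3 replicate B (1.00, edgeR adjusted p = 0.123) or hairpin #3 replicate C (0.99, edgeR adjusted p = 0.0995). FGFR1 was lower with hairpin #3 by a log2 difference of -0.50 (SE 0.107, edgeR adjusted p = 0.008), under the fold threshold. For the other 4 receptors whose knockdown and control libraries did not overlap, the 95% intervals of the log2 difference were -0.36 to 0.94 for PDGFRB, -0.47 to 1.14 for FGFR2, -0.46 to 0.36 for MET and -0.25 to 0.54 for DDR1.

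Each receptor was set beside its chromosomal neighbours, the 25 nearest tested genes on each side whose mean level reached 10 CPM. In the pooled comparison the neighbours' median log2 fold change lay between -0.29 (FGFR1) and 0.16 (PDGFRB). The neighbours of FGFR1 were thus lower on balance while FGFR1 was higher, and the neighbours of FGFR2, at 0.07, and of DDR1, at 0.06, stayed near 0. Between the hairpins, the 42 neighbours of FGFR3, which lies near the end of chromosome 4, had a median of 0.51 in the same direction as FGFR3 itself, and those of FGFR1 had 0.07. The 50 neighbours of PDGFRA, also on chromosome 4, had a median of 0.46, while PDGFRA had more counts with hairpin #1. Against control, the neighbours of FGFR3 had a median of -0.49 with hairpin #1 and 0.01 with hairpin #3. Those of PDGFRA had -0.43 and 0.05. The part of such regional shifts in the receptor differences was not tested.

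**Figure D4:**
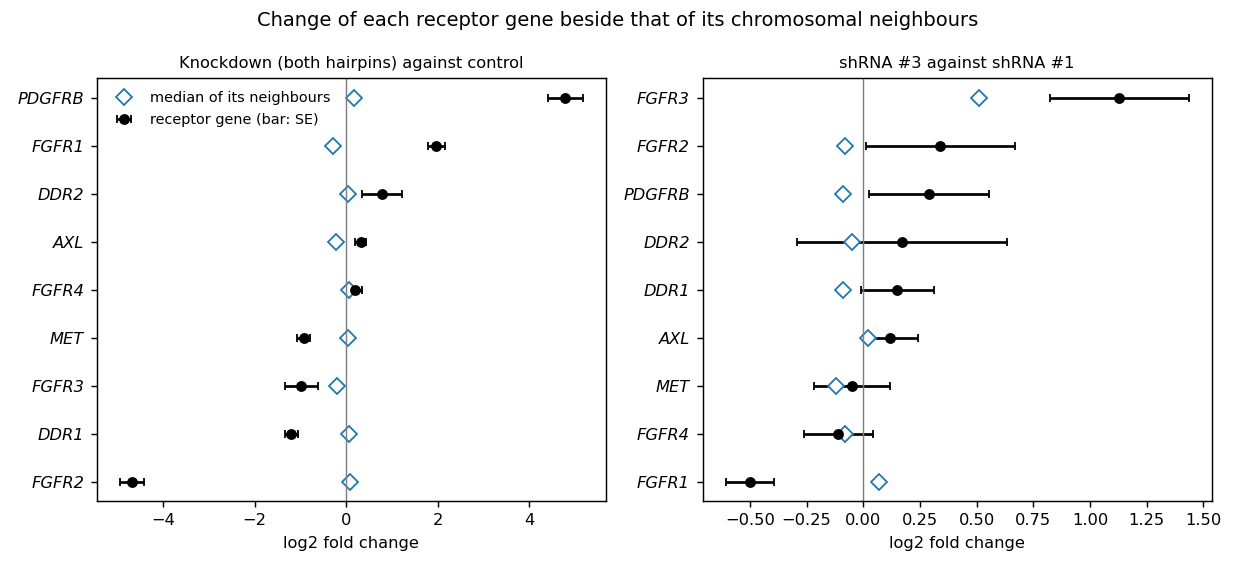
Log2 fold change of each tested receptor gene (black, SE bars) beside the median of its chromosomal neighbours (open diamonds), for knockdown against control on the left and hairpin #3 against hairpin #1 on the right. Neighbour medians stay between -0.29 and 0.16 on the left, and on the right FGFR3, at 1.13, has neighbours at 0.51.

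The ligands of the receptors were examined next. Pooled counts in this and the following lists stand beside 14.7% called over all tested genes, 7.26% higher and 7.4% lower. Of 18 FGF ligands, 5 passed the filter and 3 of these rose in the pooled comparison, with a median log2 fold change of 1.31. FGF18 rose by 4.19 (edgeR adjusted p = 3.52e-07), FGF1 by 1.31 (edgeR adjusted p = 0.00138), and FGF2, a broadly acting FGF and the most abundant of the list, had 96.4 ± 9.64 CPM in control cells, 249.9 ± 67.6 in hairpin #1 cells and 418 ± 31.1 in hairpin #3 cells (log2 fold change 1.79, edgeR adjusted p = 2.02e-04). FGF5, singled out after its values were seen, had 21.1 CPM in control cells, 17.2 in hairpin #1 cells and 63.4 in hairpin #3 cells, a difference between hairpins of 1.87 on the log2 scale (edgeR adjusted p = 5.72e-05). Of the 4 PDGF ligands, PDGFB, which binds both PDGF receptors, was called and was lower, with 68.0 ± 10.8 CPM in control cells, 2.39 ± 0.514 in hairpin #1 cells and 4.59 ± 0.975 in hairpin #3 cells (log2 fold change -4.30, edgeR adjusted p = 1.25e-07). PDGFA, named after its values were seen, rose with hairpin #1 by 1.21 (edgeR adjusted p = 6.89e-06), and the pooled value was 0.95 (edgeR adjusted p = 0.00228), under the fold threshold. PDGFC, the most abundant PDGF ligand, was at 102, 104 and 144 CPM (log2 fold change 0.29, edgeR adjusted p = 0.170). Thus PDGFB was lower in the same libraries in which PDGFRB was higher.

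Of 9 genes of the HGF and MET axis, 7 were tested and 5 fell, with a median log2 fold change of -2.42. Over all tested genes 7.4% fell. HGF itself was not among the tested genes. The genes that fell were proteases that can activate HGF, inhibitors of those proteases, and the MET relative MST1R (RON). MST1R was named to complete the count after its values were seen. PLAU, a protease gene of the same list also named after its values were seen, was not called (log2 fold change -0.19, edgeR adjusted p = 0.285). ST14, which encodes the protease matriptase, went from 406 ± 21.1 CPM to 0.112 and 0.308 CPM (log2 fold change -10.95, edgeR adjusted p = 6.81e-11). HPN, which encodes hepsin, was at 1.58 CPM in control and at 0 in all 6 knockdown libraries, at least 10.5-fold lower against a floor of 3 counts per library. ST14 and HPN passed the filter through the control libraries, so they could be counted only as fallen. The inhibitors SPINT1, at -5.80 (edgeR adjusted p = 6.81e-11), and SPINT2, at -2.42 (edgeR adjusted p = 3.38e-09), and MST1R, at -1.77 (edgeR adjusted p = 4.80e-08), fell as well. Of the 4 ligands and relatives of AXL, 0 were called. On the edgeR adjusted p alone 3 passed, as did 5269 of all 15975 tested genes. The 3 were the receptors TYRO3 (-0.58) and MERTK (0.64) and the ligand PROS1 (0.62), with log2 fold changes under the threshold. They were named after their values were seen. GAS6, the ligand of AXL and the most abundant of the list, had a log2 fold change of -0.06 (edgeR adjusted p = 0.709).

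Of 9 collagen genes whose products bind DDR1 or DDR2, 7 were tested and 5 rose, where 7.26% of all tested genes rose. COL1A2 and COL3A1 had at most 1 count in any control library and passed the filter through the knockdown libraries, so they could be counted only as risen. Of the other 5, 3 rose, with a median log2 fold change of 2.66. COL5A1, the most abundant of them, went from 129 ± 3.30 CPM to 1154 ± 487 and 932 ± 146 (log2 fold change 3.01, edgeR adjusted p = 5.21e-06). COL1A1 rose by 4.74 (edgeR adjusted p = 5.89e-05) and COL5A2, named to complete the count after its values were seen, by 2.66 (edgeR adjusted p = 9.89e-08). COL1A2 (edgeR adjusted p = 9.64e-04) was at 2.65 and 0.869 CPM and COL3A1 (edgeR adjusted p = 0.0133) at 0.322 and 1.03 CPM with hairpins #1 and #3. COL1A1, COL1A2 and COL3A1 also belong to the fibroblast markers given above.

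Of 13 FGF co-receptors and decoys, 11 were tested, 2 rose and 2 fell in the pooled comparison, with a median of 0.11. With hairpin #1 2 rose and 2 fell, and with hairpin #3 1 rose and 3 fell. Over all tested genes 14.7% were called in the pooled comparison, 16.3% with hairpin #1 and 15.3% with hairpin #3. The neuropilins NRP2, at 2.63 (edgeR adjusted p = 1.84e-07), and NRP1, at 1.08 (edgeR adjusted p = 0.00535), rose, the latter being named after its values were seen. NRP1 was not called with hairpin #3, at 0.86 (edgeR adjusted p = 0.0120). The glypican GPC4 fell, at -5.33 (edgeR adjusted p = 1.22e-08), as did FGFBP1, an FGF carrier protein, at -3.23 (edgeR adjusted p = 1.30e-08). SDC1, the most abundant of the list, had 0.36 (edgeR adjusted p = 0.0964). SDC2, singled out after its values were seen, had 3.17 ± 0.319 CPM in control cells, 6.69 ± 3.91 in hairpin #1 cells and 0.0914 ± 0.158 in hairpin #3 cells, a log2 difference between hairpins of -6.15 (edgeR adjusted p = 1.60e-04).

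Against a share of 14.7% over all tested genes, 1 of 16 adaptor genes downstream of the receptors was called. This was CBLB, a ubiquitin ligase that takes part in receptor turnover, at 2.07 (edgeR adjusted p = 4.30e-06), and SHC1, the most abundant adaptor, had 0.56 (edgeR adjusted p = 0.00561). Of 17 feedback and target genes of the MAPK pathway, 1 rose and 3 fell, with a median of -0.07. Over all tested genes 7.26% rose and 7.4% fell. The transcription factor gene ETV1 rose by 2.13 (edgeR adjusted p = 2.36e-06), while the immediate early gene EGR1, at -3.79 (edgeR adjusted p = 1.91e-05), the phosphatase gene DUSP4, at -1.16 (edgeR adjusted p = 5.95e-06), and the cyclin gene CCND1, at -1.08 (edgeR adjusted p = 6.46e-05), fell. Of 8 sheddases and their inhibitors, which control the release of receptor ectodomains, the protease gene MMP14 rose by 2.39 (edgeR adjusted p = 1.04e-06), and TIMP3, at -1.88 (edgeR adjusted p = 9.19e-05), and ADAM9, at -1.33 (edgeR adjusted p = 5.82e-07), fell. TIMP2, the most abundant of that list, had 0.27 (edgeR adjusted p = 0.171).

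Of 48 other receptor tyrosine kinases, 35 were tested, 7 rose and 6 fell, with a median of 0.09. Over all tested genes 7.26% rose and 7.4% fell. The ephrin receptor EPHA1 went from 55.3 ± 1.78 CPM to 0.782 and 0.972 CPM (log2 fold change -5.98, edgeR adjusted p = 8.51e-10). TIE1, an endothelial receptor, went from 17 ± 4.75 CPM to 369 ± 24.2 and 358 ± 24.3 (log2 fold change 4.42, edgeR adjusted p = 4.00e-09). The summed level of 7 leukocyte and endothelial markers was 0.796 to 1.31 CPM in control, 2.43 to 4.29 CPM with hairpin #1 and 4.06 to 5.85 CPM with hairpin #3. Their part in the TIE1 difference was not tested. ROS1 was at 0 in control and at least 3.10-fold higher in the knockdown libraries. It passed the filter through the knockdown libraries, so it could be counted only as risen. EGFR, the gene of the list with the highest mean CPM, had 0.42 (edgeR adjusted p = 0.00285), under the fold threshold. Per length, EPHA2 of the same list, named after its values were seen, lay above EGFR in each group. EPHA2 had 354 in control, 263.5 with hairpin #1 and 366.5 with hairpin #3, against 126.9, 172.2 and 171.3 for EGFR.

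**Figure D5:**
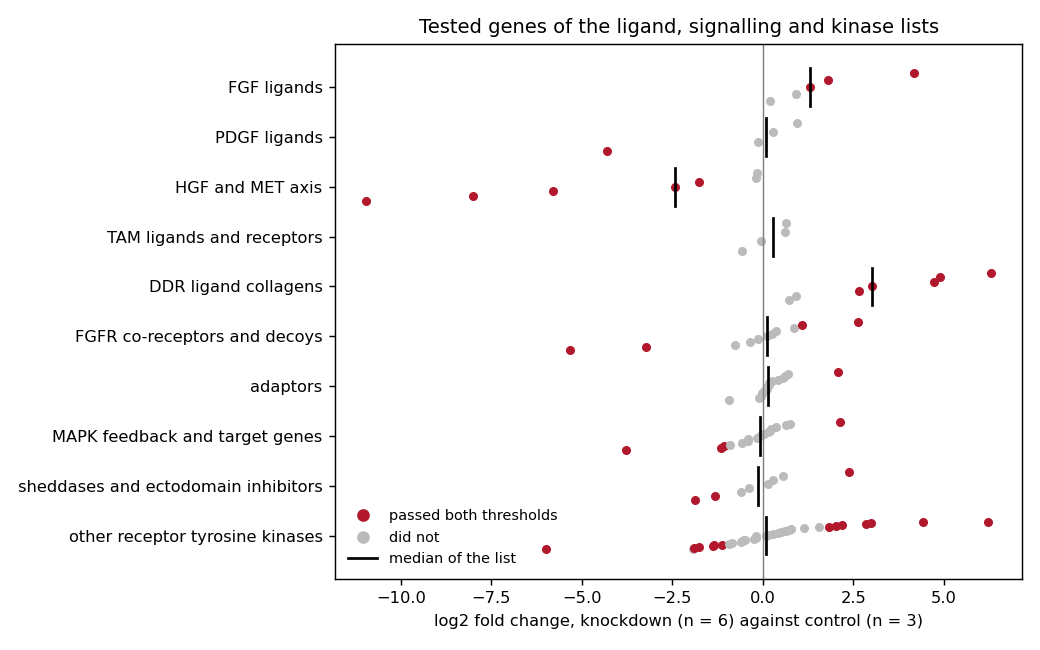
Fitted log2 fold change of every tested gene in the ligand, co-receptor, signalling and kinase lists, knockdown (n = 6) against control (n = 3), with red points for genes that passed both thresholds and black bars for list medians. The HGF and MET axis has its median at -2.42 and the DDR ligand collagens, with COL1A2 and COL3A1 included, at 3.01, and the fitted values of HPN, COL1A2, COL3A1 and ROS1, which were at or near 0 in a group, are not bounds.

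For each tested receptor, the gene with the most similar pattern was found by Pearson's r of log2 CPM over the 9 libraries, among 9692 or 9693 genes whose mean level reached 10 CPM. These 9 points form 3 groups and share libraries and depth, so r is a description. The closest gene was ELF3 for FGFR2 (0.999), CAP2 for FGFR1 (0.994), TMC6 for DDR1 (0.994), LINC00839 for PDGFRB (0.992), RAD54L2 for MET (0.986) and RBMS2 for FGFR3 (0.975). It was R3HCC1L for DDR2 (0.959), USP22 for AXL (0.943) and BANF1 for FGFR4 (0.925).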

How the data were processed

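Poly(A) RNA of OVCA433 cells was sequenced from non-directional libraries, 3 per group. The deposited values are raw read counts per gene, not normalized by the authors, and the submitters' processing notes name HISAT2 2.0.5, featureCounts 1.5.0-p3 and hg38. All 58676 gene identifiers were present in GENCODE 29, 95.2% at the same position. Genes were filtered with filterByExpr of edgeR 4.0.16 in R 4.3.3 (minimum count 10, minimum total 15), scaled by TMM and tested with glmQLFit and glmQLFTest, with Benjamini-Hochberg adjustment over the 15975 genes kept. The pooled comparison used a model with 2 groups, and each hairpin and the difference between hairpins a model with 3 groups. The script was tested on simulated data. The adjusted p of 0.05 and the log2 fold change of 1 are the thresholds of the study. SE was taken as the fold change divided by the root of F. Levels between genes used the merged exon lengths of the deposited table. The 95% intervals of log2 fold changes and differences were computed from this SE with the t distribution, so they include the spread between libraries. The intervals of the PDGFRA count ratios, and floors of 3 counts, cover counting error only.

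The receptors and the gene lists were chosen with earlier results of these data known. Besides the 10 receptors and MPZL3, the genes named are, per list, at most 3 called genes with the largest change and the most abundant gene, and for each receptor the gene with the most similar pattern. The most abundant gene of a list is the one with the highest mean CPM, which takes no account of gene length. Others are marked as named after their values were seen. The single markers CDH1, PAX8, KRT7, WT1, MUC16, SNAI2, DCN and FAP, and the mesothelial markers given below, carry no such mark and were named outside this rule. Sequences are from RefSeq on GRCh38.p14. The marker lists were 12 serous epithelial, 10 mesenchymal, 8 fibroblast, 5 mesothelial, and 7 leukocyte and endothelial genes. The mesothelial list summed to 133 to 166 CPM in control, 135 to 144 CPM with hairpin #1 and 187 to 224 CPM with hairpin #3. Its genes moved in opposite directions. In the same order of groups, UPK3B was at 57.2, 0.541 and 0.746 CPM and BNC1 at 9.41, 35.8 and 31.2 CPM. MSLN was at 68.4, 85.9 and 149 CPM, LRRN4 at 10.4, 17.4 and 25.1 CPM, and CALB2 at 0.1455, 0.0299 and 0.0686 CPM.

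The alternatives tried were other filters (none, or a mean CPM of 1), other scalings (library totals, or size factors from DESeq2), DESeq2 1.42.0 with its Wald test, a block for the replicate letter, leaving out single libraries, the fold threshold absent or inside the test, a 3-group model for the pooled comparison, the compared libraries alone, the length of the longest transcript and 10 neighbours on each side. The PDGFRA ratio without single hairpin #3 libraries and the collagen count without genes near 0 in control were chosen after seeing the data.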

Additional observations from a re-analysis of the deposited data

Results flagged for a closer look

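In the direct test of hairpin #3 against hairpin #1, 2 of the 9 tested receptors had an edgeR adjusted p under 0.05, as did 1857 of all 15975 tested genes. Of the 2 receptors 1, FGFR3, also passed the fold threshold, as did 3.93% of all tested genes. FGFR1 was higher than control with both hairpins and lower with hairpin #3 than with hairpin #1, by a log2 difference of -0.50 (edgeR adjusted p = 0.008). FGFR3 was higher with hairpin #3 than with hairpin #1, by a log2 difference of 1.13 (edgeR adjusted p = 0.0297). This call was lost in 5 of 18 alternatives, including the omission of any of 4 single libraries. The 18 also include omissions of control libraries, which are not part of that comparison. Groups of 3 libraries were not tested for outlying samples.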

How the results depend on the processing

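Of 648 results for single receptors under the alternatives, 617 kept their direction and call, 12 gained a call, 10 lost one and 9 changed sign. Most of these results were not called at the outset. They also include omissions of a library outside the comparison, which could hardly move the fold change. The number of receptors called with hairpin #1 was 3 with the 2-fold threshold inside the test, and between the hairpins it was 0 with that threshold, 2 on the adjusted p alone and 0 to 1 with a library left out. With a library left out it was 4 to 5 in the pooled comparison. The 9 changes of sign all came from leaving out a library and concerned differences that were not called. Their ranges were -0.08 to 1.07 for DDR2 with hairpin #1 against control and -0.02 to 0.25 for FGFR4 with hairpin #3 against control. Between the hairpins they were -0.21 to 0.93 for DDR2, -0.28 to 0.10 for MET, -0.07 to 0.73 for FGFR2 and -0.28 to 0.00 for FGFR4. In the pooled comparison over all genes, 5269 passed on the adjusted p alone and 1317 with the threshold inside the test, against 2342. For hairpin #1 these were 6032 and 1539 against 2605, for hairpin #3 5536 and 1481 against 2443, and between the hairpins 1857 and 206 against 628. With the length of the longest transcript, AXL had 47.0% of the summed receptor level in control in place of 52.7%, and FGFR2 had 72.8% of the FGF receptor level in control against 4.63% and 6.77% with hairpins #1 and #3. Without a filter, PDGFRA was tested and called in the pooled comparison (edgeR adjusted p = 0.0288) and with hairpin #1 (edgeR adjusted p = 0.00565), and not with hairpin #3 (edgeR adjusted p = 0.165). The correlation of deviations between libraries of the same letter was 0.0373 to 0.361 and that of different letters -0.322 to 0.132. The same letter gave the highest value in 15 of 18 cases, a hint from the data, but not every same-letter pair exceeded 0.1 and the labels tie no letter to a shared batch, so the letters were not taken to pair the samples. With the replicate block, 5 receptors were called in the pooled comparison, FGFR3 being added at -1.03 (edgeR adjusted p = 0.0468), and 5, 4 and 1 in the others. FGFR3 with hairpin #3 against control was then at -0.55 (edgeR adjusted p = 0.0171), under the fold threshold. Its difference between the hairpins was 1.13 with the block (edgeR adjusted p = 6.94e-04). AXL had 0.30 with the block (edgeR adjusted p = 0.0288), still under the fold threshold. MET with hairpin #3 passed both thresholds without control replicate B (-1.01). The depth limits PDGFRA, DDR2 and the control level of PDGFRB.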
